A study of Mus musculus with 6 samples.

Results

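Expression of 10 germline and reproductive homeobox genes was examined by RNA-seq in mouse embryonic stem cells (mES cells) of the line E14, which is of strain 129/Ola and grows without feeders. Earlier results of these data were known when the genes were chosen. They were chosen as genes known to be repressed by DNA methylation and by the Polycomb complex PRC1.6: *Dazl*, *Stra8*, *Sycp3*, *Mael*, *Taf7l*, *Stk31*, *Slc25a31*, *Rhox5*, *Rhox6* and *Rhox9*. Of these, 9 were among the 16668 gene symbols in the deposited lists, and *Rhox5* was listed neither under this symbol nor as Pem. All 9 had a mean of at least 0.5 RPKM (reads divided by exon length and by the mapped reads of the library) over the 6 libraries and were tested among 11538 genes. *Slc25a31* reached that mean only through 2 libraries, being at or below 0.421 RPKM in each of the other 4.

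The study asked how loss of either of 2 enzymes that attach ubiquitin to histone H2A, Ring1B (encoded by *Rnf2*) and Dzip3, alters transcription. Cells of passage 3-5 were grown in N2B27 medium with LIF and the inhibitors PD0325901 and CHIR99021 (2i), and were transfected with siRNA. The sample labels give 3 groups of 2 libraries: wild type (labelled control), Ring1B knockdown (Ring1B-KD) and Dzip3 knockdown (Dzip3-KD). The study calls the duplicates biological, whereas the labels do not say that they came from separate cultures, so p-values measure the spread between these libraries, which may be technical.

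Each deposited list carries a number from 1 to 6 and a condition word, and the word differed from the sample label in 4 of 6. In lists 1 to 3, called the first set here, the words were control (labelled control 1), Ring1BKD (labelled control 2) and Dzip3KD (labelled Ring1B-KD 1). In lists 4 to 6, the second set, they were control (labelled Ring1B-KD 2), Ring1BKD (labelled Dzip3-KD 1) and Dzip3KD (labelled Dzip3-KD 2). Comparisons were made by word within sets and, separately, by label. A library is called Ring1BKD-named, Dzip3KD-named or control-named after the word of its list, and neither the word nor the label is taken to show that a knockdown occurred.

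The targeted genes were examined first. *Rnf2* was at 30.6 and 28.8 RPKM in the control-named libraries, 20.4 and 19.4 RPKM in the Ring1BKD-named libraries and 26.8 and 28.2 RPKM in the Dzip3KD-named libraries. The Ring1BKD-named libraries, labelled control 2 and Dzip3-KD 1, were thus the lowest, and those labelled Ring1B-KD were not low. *Dzip3* was at 2.24 and 1.89 RPKM in the control-named, 2.68 and 1.70 RPKM in the Ring1BKD-named and 1.18 and 1.31 RPKM in the Dzip3KD-named libraries. The log2 change by word was -0.55 for *Rnf2* in Ring1BKD (SE 0.13, limma adjusted p 0.232) and -0.45 for *Dzip3* in Dzip3KD (SE 0.21, limma adjusted p 0.754), and neither passed the threshold of 0.05. By summed reads, *Rnf2* in Ring1BKD was 0.672 times control (95% exact interval 0.590 to 0.765) and *Dzip3* in Dzip3KD 0.606 times control (0.415 to 0.878). Such intervals cover counting error only.

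Depth was 3015348 to 3583611 mapped reads per library, recovered from the values, with a median of 19 reads per gene and library. On a transcript of 2 kb, 3 reads were worth 0.419 to 0.497 RPKM. The 11 ES cell markers summed to 1557 to 1941 RPKM, none of them at 0 in any library. More genes passed between the sets, a comparison of 3 libraries with 3, than between any words. Comparisons of words set 2 libraries against 2 and have larger SEs in the same fit, so the counts are not on equal terms. Between the sets 879 genes passed (7.62% of those tested), 455 higher and 424 lower in the second. Scaling to a common 75th percentile moved this split to 564 and 341. The number was 351 to 509 with any 1 library left out.

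Germ cell genes are transcribed in the germline and are shut in most other cells. In ES cells, PRC1.6 is recruited to many of their promoters by sequence-specific subunits, Mga with Max at E-boxes and E2f6 with its partner at E2F motifs, and carries Ring1B (or its relative Ring1A) as the ubiquitin ligase for H2A. Many of the same promoters are rich in CpG and are methylated in somatic cells. The Rhox genes are homeobox genes clustered on the X chromosome and expressed in reproductive tissues and placenta, and they too are held silent by DNA methylation in most somatic cells.

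Promoter windows from 250 bases before to 50 bases after the annotated start were available from RefSeq (GRCm38.p6) for 8 of the 10 genes, *Rhox6* and *Rhox9* being the ones without an entry. The E-box CACGTG, which reads the same on both strands, occurred in the windows of 5 of these genes, *Sycp3*, *Mael*, *Taf7l*, *Stk31* and *Slc25a31*, against 2187 of 27025 genes (8.09%) overall. An E2F motif, GGCGGGA on either strand, occurred in the windows of *Mael* and *Slc25a31*, against 12.7% of genes, and both motifs together occurred in 1.39% of genes. The motifs do not overlap. Over all genes, a gene counted when any of its windows (32851 in all) matched, whereas only 1 window of each of the 8 genes was searched. The shares were not matched for CpG content. Since the genes were chosen as repressed by PRC1.6, their number of E-boxes is not an independent result. The windows of *Dazl* and *Stra8* held neither sequence, which says only that these letters are not in these windows. The *Stra8* window (34870698 to 34870997, mm9) lies inside the gene as located below (34870163 to 34889342). RefSeq and the annotation used for gene locations thus place its start differently, and the sequence before the latter start was not searched. Of the 5 genes with an E-box, 4 were highest in both Ring1BKD-named libraries and *Sycp3* was not. *Dazl*, whose window held no E-box, was also highest in both. A link between the E-box and these levels was not tested. The stretches around the E-boxes are given for all 5 genes. Each matched the mm9 genome at exactly 1 place, is written 5′ to 3′ on the strand of the gene, and has the E-box and the E2F motif (here on the opposite strand, TCCCGCC) in capitals.
Sycp3 (chr10:87922241-87922300, plus strand): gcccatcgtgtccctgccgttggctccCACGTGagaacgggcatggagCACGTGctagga
Mael (chr1:168168996-168169125, minus strand): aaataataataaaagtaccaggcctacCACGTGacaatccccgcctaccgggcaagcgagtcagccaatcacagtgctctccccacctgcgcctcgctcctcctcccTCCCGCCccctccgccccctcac
Taf7l (chrX:131011046-131011105, minus strand): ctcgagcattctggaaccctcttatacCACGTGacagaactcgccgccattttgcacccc
Stk31 (chr6:49345456-49345515, plus strand): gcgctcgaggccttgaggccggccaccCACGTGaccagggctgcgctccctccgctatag
Slc25a31 (chr3:40512673-40512732, plus strand): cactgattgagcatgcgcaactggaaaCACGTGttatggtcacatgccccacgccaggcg

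The E-box began 49 to 93 bases upstream of the RefSeq start in *Taf7l* (position -49), *Stk31* (-55), *Sycp3* (-64, with a second at -43) and *Slc25a31* (-93), and farther out in *Mael* (-223). This start can differ from the gene locations given below: the whole *Stk31* window (49345288 to 49345587) ends before the located gene start of 49345603. CpG dinucleotides numbered 29 in the 300-base window of *Stk31*, 28 in *Dazl*, 24 in *Mael*, 22 in *Slc25a31*, 17 in *Taf7l*, 15 in *Sycp3*, 10 in *Stra8* and 5 in *Rhox5*. The median over all promoters was 7 and the upper quartile 20, so *Stk31*, *Dazl*, *Mael* and *Slc25a31* lay above that quartile and *Rhox5* below the median.

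*Dazl*, which encodes an RNA-binding protein needed for germ cell development, lies on the minus strand of chromosome 17 (50418719 to 50432924, mm9). It was by far the highest of the listed genes and the only one with more than 30 reads in a library. Its level was 13.5 and 14.9 RPKM in the control-named libraries (labelled control 1 and Ring1B-KD 2), 23.7 and 26.0 RPKM in the Ring1BKD-named libraries (labelled control 2 and Dzip3-KD 1) and 12.6 and 14.8 RPKM in the Dzip3KD-named libraries (labelled Ring1B-KD 1 and Dzip3-KD 2). Both Ring1BKD-named libraries stood above the other 4, while the control-named and Dzip3KD-named libraries overlapped. *Dazl* averaged 14.2 ± 0.965 RPKM (SD, n = 2) under the word control, 24.9 ± 1.64 RPKM (SD, n = 2) under Ring1BKD and 13.7 ± 1.54 RPKM (SD, n = 2) under Dzip3KD. Fewer expressing cells and less RNA per cell cannot be told apart in such bulk samples.

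The difference in *Dazl* between Ring1BKD and control was 0.76 on the log2(RPKM + 1) scale in each set, a scale that understates the change of low genes. In the fit it was 0.76 (SE 0.14), with a limma adjusted p of 0.0748, above the threshold. With reads pooled by word the ratio was 1.74 (95% exact interval 1.50 to 2.03), on 493 against 267 reads. Between Dzip3KD and Ring1BKD the log2 change of *Dazl* was -0.82 (SE 0.14, limma adjusted p 0.0474), so *Dazl* fell, as the only one of the 9 genes that passed, where 0.676% of all genes tested were called (8 higher and 70 lower). This call was lost with a pseudocount of 0.1 (limma adjusted p 0.0769), without the filter on low values (0.300), without moderation of the variance (0.495) and without the term for the set (0.400). It was also lost without the library labelled control 2 (0.285), Ring1B-KD 1 (0.126), Dzip3-KD 1 (0.273) or Dzip3-KD 2 (0.0778). *Dazl* did not differ detectably between Dzip3KD and control, at -0.05 on the log2 scale (SE 0.14, limma adjusted p 0.960) and a read ratio of 0.963 (0.812 to 1.14).

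**Figure D1:**
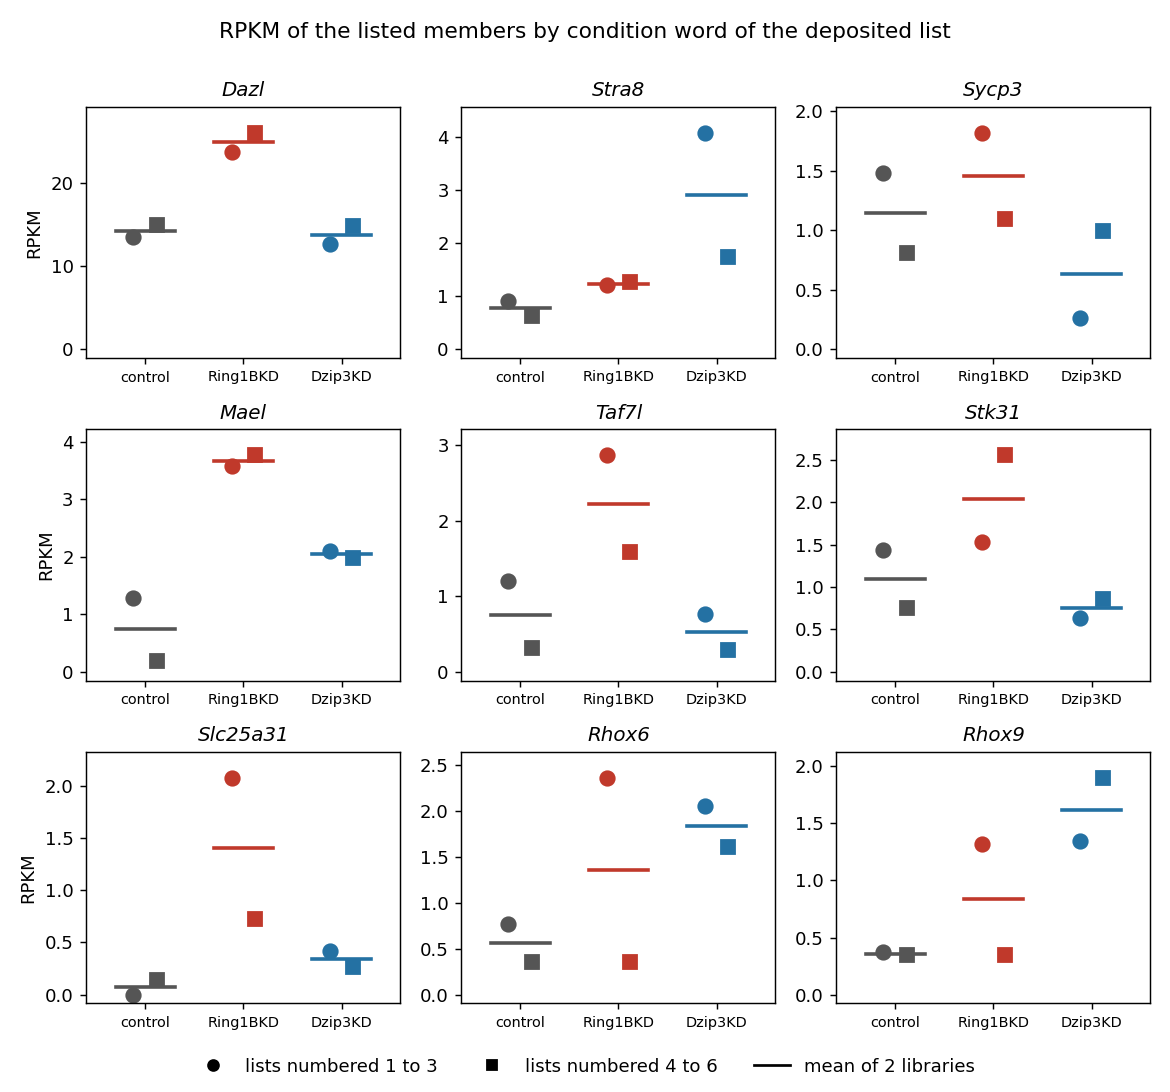
RPKM (vertical axis, own scale for each gene) of the 9 listed genes in the 6 libraries, grouped by the condition word of the deposited list; circles are lists 1 to 3, squares lists 4 to 6, and lines the mean of 2 libraries. *Dazl* sits at 23.7 and 26.0 RPKM in the Ring1BKD-named libraries and between 12.6 and 14.9 RPKM in the other 4, while every other gene stays below 5 RPKM.

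*Mael*, *Taf7l*, *Stk31* and *Slc25a31* were each higher in both Ring1BKD-named libraries than in the other 4, as was *Dazl*. This made 5 of the 9 listed genes, beside 4.3% of all genes tested. Without *Slc25a31*, which passed the filter on low values only through these 2 libraries, it was 4 of 8. The genes were chosen with earlier results of these data known, so these counts are not a test. None of the 9 lay below the other 4 libraries in both Ring1BKD-named libraries, where 8.49% of all genes did. None of the 9 passed the threshold against control, where 48 genes (0.416%) did, all higher, and 959 genes had an unadjusted p under 0.05. On recovered reads with voom, *Dazl* passed (limma adjusted p 0.00846), among 76 genes.

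*Mael* encodes maelstrom, a protein of the piRNA pathway that silences transposons in germ cells, and lies on the minus strand of chromosome 1 (168131516 to 168168875). It was at 1.29 and 0.196 RPKM in the control-named, 3.58 and 3.76 RPKM in the Ring1BKD-named and 2.11 and 1.99 RPKM in the Dzip3KD-named libraries. The 3 words did not overlap, control being lowest and Ring1BKD highest. The log2 change in Ring1BKD was 1.50 (SE 0.27, limma adjusted p 0.0796), and it was 1.00 in the first set and 1.99 in the second. With 1 library left out it ranged from 1.03 to 1.97, with limma adjusted p from 0.00520 to 0.382, and passed only without the library labelled control 1, where the control arm is the library with 1 read. The read ratio was 5.12 (2.26 to 13.6), on 38 reads against 7. In Dzip3KD the log2 change was 0.88 (SE 0.27, limma adjusted p 0.754), with a read ratio of 2.86 (1.18 to 7.91).

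*Taf7l* encodes a germ cell relative of a subunit of the general transcription factor TFIID and lies on the minus strand of the X chromosome (130994657 to 131011029). It was at 1.20 and 0.313 RPKM in the control-named, 2.86 and 1.58 RPKM in the Ring1BKD-named and 0.766 and 0.288 RPKM in the Dzip3KD-named libraries. In each word the first set was the higher one, with a log2 difference between sets of -0.59 (SE 0.17, limma adjusted p 0.0768). The log2 change in Ring1BKD against control was 0.89 (SE 0.21, limma adjusted p 0.223) and that in Dzip3KD against Ring1BKD -1.07 (SE 0.21, limma adjusted p 0.0864). The latter passed without the library labelled control 1 (limma adjusted p 0.0383) or Ring1B-KD 2 (0.0369), but not without any of the other 4, where limma adjusted p was 0.136 to 0.403. The read ratio of Ring1BKD to control was 3.04 (1.40 to 7.30), on 29 reads against 9.

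*Stk31* encodes a testis protein with a Tudor domain and a kinase-like domain and lies on the plus strand of chromosome 6 (49345603 to 49419500). It was at 1.43 and 0.748 RPKM in the control-named, 1.53 and 2.55 RPKM in the Ring1BKD-named and 0.641 and 0.862 RPKM in the Dzip3KD-named libraries. The Ring1BKD-named libraries were highest, but in the first set by only 0.06 over control on the log2 scale, against 1.02 in the second. The fitted change was 0.54 (SE 0.27, limma adjusted p 0.621), and the read ratio 1.89 (1.11 to 3.31), on 44 reads against 22.

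*Slc25a31* encodes the ADP/ATP carrier of the testis and lies on the plus strand of chromosome 3 (40512777 to 40529515). It had 0 and 1 reads in the control-named libraries, 15 and 5 in the Ring1BKD-named libraries and 3 and 2 in the Dzip3KD-named libraries, that is, 0 and 0.143, 2.07 and 0.725, and 0.421 and 0.265 RPKM. The log2 change in Ring1BKD was 1.11 (SE 0.28, limma adjusted p 0.286). With 20 reads against 1, the read ratio was 18.9 with an interval of 3.02 to 782, so its size is poorly set at this depth.

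**Figure D2:**
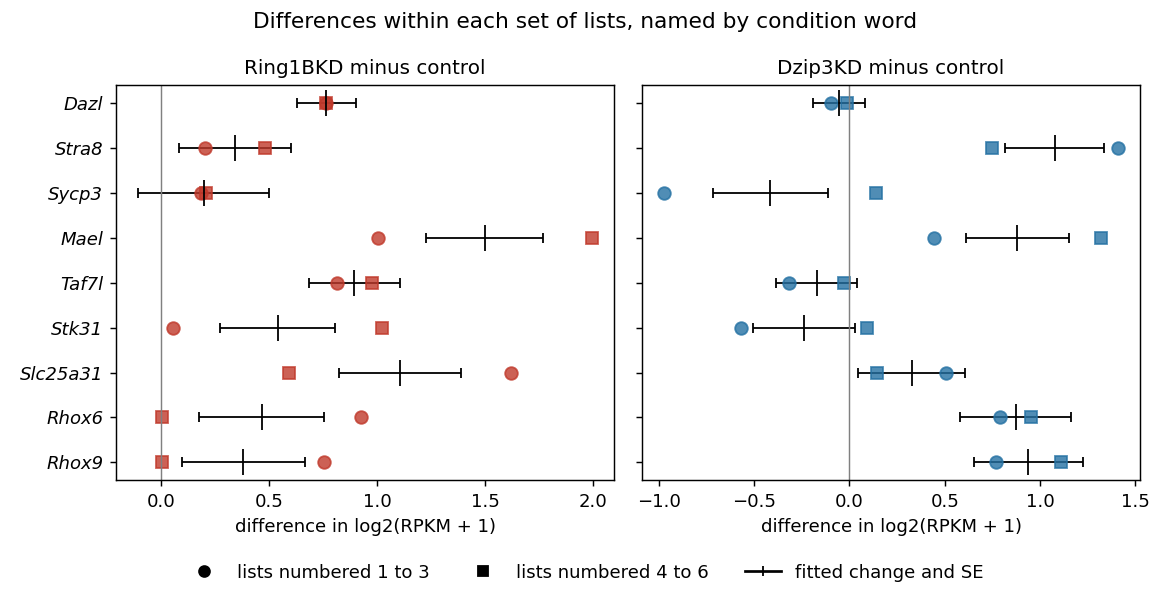
Difference in log2(RPKM + 1) from the control-named library of the same set for each gene (circles, lists 1 to 3; squares, lists 4 to 6), with the fitted change and its SE in black. The *Dazl* differences for Ring1BKD coincide at 0.76, whereas those of *Rhox6* and *Rhox9* are 0.93 and 0.75 in one set and 0.00 in the other.

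*Stra8*, which retinoic acid induces at the entry into meiosis, lies on the plus strand of chromosome 6 (34870163 to 34889342). It was at 0.912 and 0.624 RPKM in the control-named, 1.20 and 1.26 RPKM in the Ring1BKD-named and 4.07 and 1.73 RPKM in the Dzip3KD-named libraries. Both Dzip3KD-named libraries, labelled Ring1B-KD 1 and Dzip3-KD 2, were above the other 4, and they differed from each other more than the remaining libraries did. The log2 change in Dzip3KD was 1.08 (SE 0.26, limma adjusted p 0.658), being 1.41 in the first set and 0.75 in the second, and the read ratio was 3.76 (1.61 to 10.2), on 29 reads against 7. In Ring1BKD it was 0.34 (limma adjusted p 0.757), with a read ratio of 1.62 (0.587 to 4.85).

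*Sycp3* encodes a component of the axial elements of the synaptonemal complex, which holds homologous chromosomes together in meiosis, and lies on the plus strand of chromosome 10 (87922314 to 87935981). It was at 1.48 and 0.809 RPKM in the control-named, 1.82 and 1.09 RPKM in the Ring1BKD-named and 0.264 and 0.995 RPKM in the Dzip3KD-named libraries. The control-named libraries overlapped with those of either other word, and both Ring1BKD-named libraries lay above both Dzip3KD-named ones. The log2 change was 0.20 in Ring1BKD (limma adjusted p 0.885), and in Dzip3KD it was -0.97 in the first set and 0.14 in the second. With 1 to 7 reads per library, no difference was detectable at this depth.

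*Rhox6* and *Rhox9* are homeobox genes of the Rhox cluster, expressed in placenta and germ cells, on the plus strand (35180087 to 35183034) and the minus strand (35252274 to 35255044) of the X chromosome. Their longest annotated transcripts were identical at 80.6% of 815 aligned bases. Of the 36-base windows of *Rhox6*, 14.5% also occurred in *Rhox9*. By the study's methods only reads unique to a gene were counted, which would understate the levels of both. The lists, however, hold 457 values above 0 but under 0.001 RPKM, less than 1 read is worth. Whether shared reads were left out or split between genes is therefore not known. *Rhox6* was at 0.767 and 0.350 RPKM in the control-named, 2.36 and 0.354 RPKM in the Ring1BKD-named and 2.06 and 1.61 RPKM in the Dzip3KD-named libraries. *Rhox9* was at 0.376 and 0.343 RPKM, 1.32 and 0.347 RPKM, and 1.34 and 1.90 RPKM in the same order.

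Both Rhox genes were thus above the control-named libraries in both Dzip3KD-named libraries, but in only 1 Ring1BKD-named library, the one labelled control 2. The log2 change in Dzip3KD was 0.87 for *Rhox6* and 0.94 for *Rhox9* (SE 0.29 and limma adjusted p 0.754 for each). Read ratios were 3.33 (0.880 to 18.6) and 4.54 (0.968 to 42.6), on 11 reads against 3 and 10 against 2, and both intervals include no difference. The changes in Ring1BKD were 0.47 and 0.38 (limma adjusted p 0.683 and 0.752). *Rhox9*, like *Stra8*, was higher in both Dzip3KD-named libraries than in the other 4, though over the nearest of them by less than 1 read is worth. This order held for 6.06% of all genes tested. None of the 9 genes was below the other 4 libraries in both Dzip3KD-named libraries, against 4.74% of all genes. *Stra8*, *Mael* and *Slc25a31* were lower in both control-named libraries than in the other 4, against 3.12% of all genes. *Slc25a31* passed the filter on low values only through the Ring1BKD-named libraries, so its place in this count is favoured. The order rests on few reads. *Slc25a31* had 0 and 1 in the control-named against 3 and 2 in the Dzip3KD-named libraries. *Stra8* had 4 and 3 in the control-named against 6 and 6 in the Ring1BKD-named libraries.

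For Dzip3KD against control, 0 of the 9 genes and 0% of all genes passed limma, 752 genes having an unadjusted p under 0.05, and 8 genes, none of them among the 9, passed with voom. Between the sets 0 of the 9 passed, and the smallest limma adjusted p among them was that of *Taf7l* (0.0768).

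**Figure D3:**
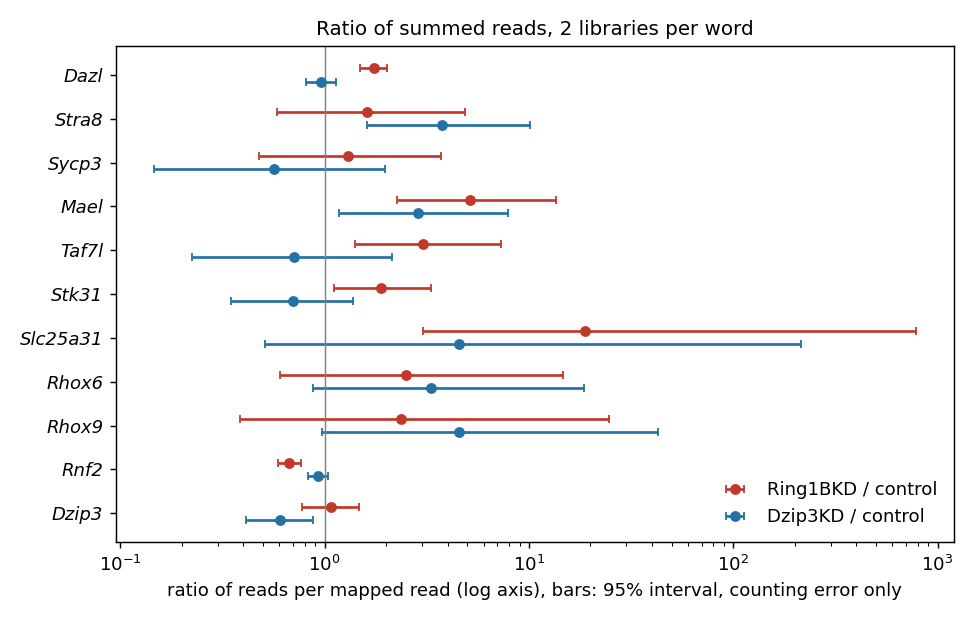
Ratio of the reads of 2 libraries to those of the 2 control-named libraries, per mapped read, on a log axis; bars are 95% exact intervals for counting error. The Ring1BKD intervals of *Dazl*, *Mael*, *Taf7l*, *Stk31* and *Slc25a31* lie above 1 and that of *Rnf2* (0.590 to 0.765) below it, whereas for Dzip3KD those of *Stra8* and *Mael* lie above 1.

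In order of mean RPKM over the control-named libraries, *Dazl* stood first at 14.2, followed by *Sycp3* (1.14 ± 0.473, SD, n = 2), *Stk31* (1.09 ± 0.485), *Stra8* (0.768 ± 0.204), *Taf7l* (0.756 ± 0.627), *Mael* (0.741 ± 0.772), *Rhox6* (0.558 ± 0.295), *Rhox9* (0.360 ± 0.0233) and *Slc25a31* (0.0717 ± 0.101). From *Sycp3* to *Rhox6*, neighbours in this order did not differ beyond their spread. In the control-named libraries *Slc25a31*, *Rhox6* and *Rhox9* had at most 2 reads each, below the 3 reads taken as the counting limit. *Sycp3* and *Taf7l* had libraries at 1 or 2 reads as well, and *Mael* had 1 read in the library labelled Ring1B-KD 2.

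The same values were then grouped by sample label, where each group held libraries of 2 different words. The first set held every library labelled control and the second every one labelled Dzip3-KD. The difference between these labels and that between the sets therefore cannot be told apart. Under the label control, *Dazl* was at 13.5 and 23.7 RPKM, under Ring1B-KD at 12.6 and 14.9 RPKM and under Dzip3-KD at 26.0 and 14.8 RPKM, so that all labelled groups overlapped. Against the label control, *Dazl* differed by -0.37 under Ring1B-KD (SE 0.31, limma adjusted p 0.924) and by 0.12 under Dzip3-KD (SE 0.31, limma adjusted p 0.880) on the log2 scale. None of the 9 genes was above both controls in both libraries labelled Ring1B-KD, against 14.9% of all genes, and *Sycp3*, *Taf7l* and *Stk31* were below, against 18.9%. In the libraries labelled Dzip3-KD, *Stra8* was above both controls (20.4% of all genes) and *Sycp3* below (30.3%). The *Sycp3* difference was -0.81 under the label Ring1B-KD (SE 0.26, limma adjusted p 0.902) and -0.37 under Dzip3-KD (SE 0.26, limma adjusted p 0.561). In each of the 3 comparisons by label, 0 of the 9 genes and 0% of all genes passed limma, also with voom. Genes with an unadjusted p under 0.05 numbered 589 for Ring1B-KD, 1411 for Dzip3-KD and 534 between them.

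Of 73 other germline genes in a list, 65 were listed and 39 tested. In the comparisons by word 0 of 39 passed, and their median log2 change was 0.03 in Ring1BKD and -0.00 in Dzip3KD, beside -0.08 and -0.03 over all genes. Both Ring1BKD-named libraries were above the other 4 for 7 of the 39, beside 4.3% of all genes: *Ddx4*, *Syce1*, *Tex19.2*, *Piwil2*, *Rec8*, *Mei4* and *Tex13*. *Piwil2* and *Rec8* passed the filter only through these libraries, their mean over the other 4 being below 0.5 RPKM. *Ddx4*, the RNA helicase known as mouse vasa homologue, was at 0.698 and 0.425 RPKM in the control-named, 2.87 and 1.18 RPKM in the Ring1BKD-named and 0.520 and 0.588 RPKM in the Dzip3KD-named libraries. In Ring1BKD it differed from control by 0.90 on the log2 scale (SE 0.26, limma adjusted p 0.377). The reverse order, with both Ring1BKD-named libraries below the other 4, was seen for 3 of the 39, *Tex14*, *Dmc1* and *Zfy1*, beside 8.49% of all genes.

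Of 29 other Rhox genes, 19 were listed, 17 of them at 0 in some library, and 5 were tested. None passed by word. All 5 had a fitted change above 0 in Ring1BKD, with a median of 0.40, and 4 of 5 in Dzip3KD, with a median of 0.48. Over all genes tested the medians were -0.08 and -0.03. *Rhox2c* and *Rhox10* averaged below 0.5 RPKM over the libraries not named Ring1BKD, so the filter favoured their place in the Ring1BKD count. The same held for *Rhox10* and the Dzip3KD-named libraries. Both genes had 0 to 3 reads per library. The other 14 were below the filter and are not compared here, since many rested on single reads. *Rhox13* was the highest, at 8.99 and 6.51 RPKM in the control-named, 14.6 and 7.32 RPKM in the Ring1BKD-named and 12.1 and 10.2 RPKM in the Dzip3KD-named libraries. As for *Rhox6*, the first-set Ring1BKD-named library was higher than that of the second. The Rhox2 and Rhox4 genes are near-identical copies, so their counts are uncertain.

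Of the repressor genes themselves, 0 of 15 for PRC1.6 subunits passed by word, with median log2 changes of -0.16 in Ring1BKD and -0.08 in Dzip3KD, and the list was measured in full. None of the 15 listed genes of the DNA and H3K9 methylation machinery passed by word, with medians of -0.05 and -0.06. Between the sets, *Dnmt3b*, a de novo DNA methyltransferase, and *Uhrf1*, which guides maintenance methylation, fell. *Dnmt3b* was at 8.84 to 11.1 RPKM in the first set and 3.25 to 5.09 RPKM in the second, or -1.12 on the log2 scale (SE 0.17, limma adjusted p 0.014). *Uhrf1* was at 62.9 to 71.9 RPKM and 42.5 to 51.1 RPKM, a change of -0.54 (SE 0.11, limma adjusted p 0.026). None of the 9 germline and Rhox genes passed in that comparison.

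Markers of the rare state of ES cells that resembles the 2-cell embryo were also highest in the Ring1BKD-named libraries. Of 13 such markers, 10 were listed and none was at 0 in any library. They summed to 231 and 102 RPKM in the control-named, 565 and 437 RPKM in the Ring1BKD-named and 200 and 92.7 RPKM in the Dzip3KD-named libraries. All 10 passed as higher in Ring1BKD against control (median log2 change 1.63), where 0.416% of all genes tested were called. All 10 passed as lower in Dzip3KD against Ring1BKD (median -1.76), where 0.676% were called. Between the sets 9 fell, where 7.62% of all genes were called. *Gm428* passed the filter on low values only through the Ring1BKD-named libraries, so its place in the counts by word is favoured. It was at 6.55 and 3.66 RPKM there and at 0.102 to 0.215 RPKM in the other 4. *Zscan4c*, a member of the telomere-regulating Zscan4 cluster, differed in Ring1BKD by 1.77 on the log2 scale (SE 0.21, limma adjusted p 0.016). The Zscan4 and Usp17l genes are near-identical copies, so reads could be split among them. The number called in Ring1BKD was 1 without the library labelled Dzip3-KD 1, 6 with a pseudocount of 0.1, and 0 without the filter, the moderation or the set term. In Dzip3KD against Ring1BKD it was 4 without the library labelled Ring1B-KD 1, 3 without Dzip3-KD 2, and 0 in those last 3 fits. The sums were highest in the 2 libraries in which *Dazl*, *Mael*, *Taf7l*, *Stk31* and *Slc25a31* were highest, and their part in those differences was not tested.

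**Figure D4:**
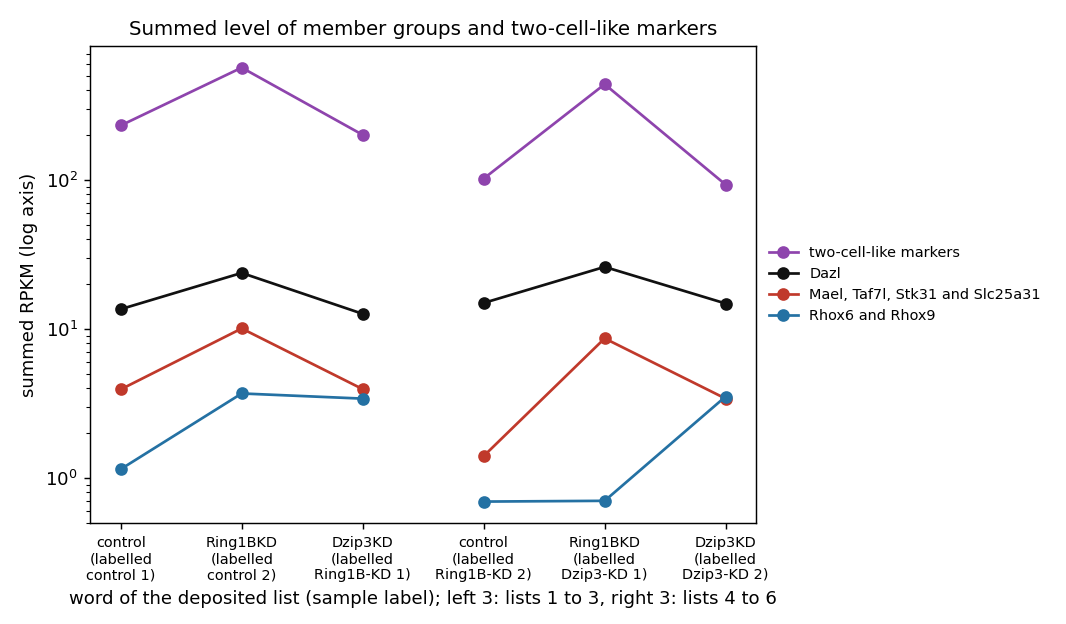
Summed RPKM (log axis) of *Dazl*, of *Mael*, *Taf7l*, *Stk31* and *Slc25a31*, of both Rhox genes and of the 10 two-cell-like markers in each library, by list word with the sample label below. All but the Rhox sum peak in the Ring1BKD-named library of each set, and the Rhox sum is 3.68 and 0.701 RPKM there against 3.40 and 3.51 RPKM in the Dzip3KD-named libraries.

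None of the markers of other cell types passed by word. All 8 primordial germ cell markers were measured, summing to 123 to 203 RPKM, and between the sets *Kit* (23.2 to 23.3 RPKM against 37.7 to 41.8 RPKM) and *Prdm1* rose. All 8 primitive endoderm markers together summed to 1.09 to 2.90 RPKM, 6 of 7 trophoblast markers to 2.93 to 9.26 RPKM and 5 of 8 fibroblast markers to 1.18 to 3.10 RPKM. Of these listed markers 5, 3 and 4, in that order, were at 0 in some library. Among the ES cell markers 0 of 11 passed by word, and *Esrrb*, *Tfcp2l1* and *Utf1* fell between the sets.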

How the data were processed

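RNA-seq values for 6 libraries of E14 mES cells were used as deposited. According to the study's methods, stranded mRNA libraries were read on a MiSeq instrument, aligned to mm9 with the Illumina Analysis Pipeline (1 mismatch allowed), and reads unique to a gene were counted. The authors deposited RPKM values, 1 list per library, without pooling. The gene annotation and software versions are not given in the sources used here. Groups came from the sample labels and, separately, from the condition word of each list within lists 1 to 3 and 4 to 6.

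Whole reads were recovered for 15681 of 16668 genes (94.1%) by matching the steps of 1 read between libraries. A gene was accepted when its values lay within 0.01 to 0.15 of whole reads or, in a second pass, within 0.03 with an exon length of 100 to 20000 bases. Values under 0.001 RPKM were taken as 0 there. Among the listed members, the exon length implied by the recovered reads equalled that of an annotated transcript for *Stra8* and *Mael* only. The reads of the others, *Dazl* included, are therefore less certain. PCR duplicates cannot be recognised, so read intervals (exact, 95%) cover counting error only.

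Tests used limma 3.58.1 (R 4.3.3) with variance trend. Values were log2(RPKM + 1), and genes averaging under 0.5 RPKM were left out. All 6 libraries entered each fit, p-values were adjusted by Benjamini-Hochberg over the 11538 genes, and the threshold was 0.05. The fit by word had a term for the set of lists, and the fit by label had no covariate. The code was tested on simulated data. The members and all gene lists were chosen with earlier results of these data known, and no list was tested as a set. Named were all members, list genes past the threshold or otherwise the 3 highest, and the 3 genes most like *Dazl*; other genes named for the order of the libraries were chosen after their values were seen. Locations are from GENCODE M1, and promoter sequences from RefSeq were placed on mm9 by exact match. Alternatives were another pseudocount, no filter, 75th percentile scaling, no moderation, a replicate block, no set term, each library left out, and voom on the recovered reads.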

Additional observations from a re-analysis of the deposited data

How the results depend on the processing

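Of the 30 log2 changes examined for single genes, 29 kept their direction and side of the threshold under each of another pseudocount, no filter, 75th percentile scaling, no moderation and voom on recovered reads (added after seeing the data). The number of the 9 genes called in Ring1BKD against control was 0, and 1 under 75th percentile scaling (*Dazl*, limma adjusted p 0.0369) and voom. In Dzip3KD against Ring1BKD it was 1, and 0 with a pseudocount of 0.1, no filter, no moderation or no set term. Leaving out 1 library at a time gave 0 to 1 and 0 to 2 genes, where a lone library of a word is assumed to vary like the others. The log2 changes whose sign turned when a library was left out ranged from -0.26 to 0.51 (*Dazl*, label Dzip3-KD), -0.75 to 0.017 (*Dazl*, label Ring1B-KD), -0.10 to 0.91 (*Rhox6*, Dzip3KD against Ring1BKD), -0.036 to 0.97 (*Rhox6*, Ring1BKD), -0.081 to 0.84 (*Rhox9*, Ring1BKD), -0.086 to 0.48 and -0.97 to 0.14 (*Sycp3*, Ring1BKD and Dzip3KD), -0.021 to 0.67 (*Slc25a31*, Dzip3KD) and -0.65 to 0.17 (*Stk31*, Dzip3KD). Over all genes, the 48 called in Ring1BKD became 21 with a pseudocount of 0.1, 67 with 75th percentile scaling, 76 with voom, 3 without the library labelled Dzip3-KD 1, and 0 with no filter, no moderation or no set term. The 78 called in Dzip3KD against Ring1BKD became 42, 80 and 128 under the first 3 of these settings, 26 to 172 with a library left out, and 0 with no filter, no moderation or no set term. The 879 called between sets became 0 with no filter or no moderation, 351 to 509 with any 1 library left out and 1624 with voom. The two-cell-like markers called in Ring1BKD went from 10 to 6 with a pseudocount of 0.1 and to 0 with no filter, no moderation or no set term, and those called in Dzip3KD against Ring1BKD to 0 with the last 3, and to 4 without Ring1B-KD 1 and 3 without Dzip3-KD 2 (labels). The cause of these moves was not tested. The labels share replicate numbers, and the deviations of same-numbered libraries from their label means correlated at -0.04, -0.24 and 0.04. These deviations also hold differences between words and, for the label Ring1B-KD, between the sets. They therefore cannot show whether same-numbered libraries were related. With the replicate block 0 of the 9 genes and 1 gene in all (label Dzip3-KD) were called, and with crossed numbers as the block, added after seeing the data, 0. All listed genes but *Dazl* had under 30 reads per library, which limits their precision.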

Other observations

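The genes with the pattern most like that of *Dazl* over the 6 libraries, by Pearson correlation of log2(RPKM + 1) among 11538 genes, were *Tex19.2* (0.992), *Plxna2* (0.991) and *Pspc1* (0.987). *Tex19.2*, a germline gene, was at 0.973 and 1.18 RPKM in the control-named, 1.99 and 2.24 RPKM in the Ring1BKD-named and 1.01 and 1.09 RPKM in the Dzip3KD-named libraries, on 6 to 15 reads. These correlations describe 6 libraries of shared origin and carry no test.

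Within the germline list, limma on log2(RPKM + 1) made calls between the sets only, and voom also called 1 gene lower in Dzip3KD than in Ring1BKD. *Tuba3a*, a testis alpha-tubulin, was at 44.6 to 54.1 RPKM in the first set and 92.6 to 95.2 RPKM in the second, which is 0.95 higher on the log2 scale (SE 0.11, limma adjusted p 0.006), and its near-identical relative *Tuba3b* and *Gm1564* also rose. *Fkbp6*, which acts in meiosis and the piRNA pathway, fell from 6.76 to 8.31 RPKM to 2.86 to 3.28 RPKM, or -1.05 on the log2 scale (SE 0.14, limma adjusted p 0.011). *Tex15*, needed for meiotic recombination and transposon silencing, fell as well, from 3.74 to 4.51 RPKM to 1.76 to 2.22 RPKM. The highest of the list that were not called were *Rpl10l* at 72.6 to 109 RPKM and *Tex19.1* at 31.7 to 58.0 RPKM. *Rpl10l* varied mainly within the first set, at 75.9 to 109 RPKM, against 72.6 to 79.0 RPKM in the second. *Tex19.1* varied within each set. *Rhox1* of the Rhox cluster and the trophoblast marker *Krt8* also fell between the sets.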
